A study of Mus musculus with 2 samples.

Results

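The kinesin motor genes were read across the cell states of 2 cultures of mouse induced myogenic progenitor cells. The members were all genes whose symbol in the deposited gene list is Kif followed by a number and at most 1 of the letters a to c, or Kifc followed by a digit. This gave 42 of 25906 genes. Kinesins that carry another name, such as Cenpe and Stard9, are outside that rule and are given apart.

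Induced myogenic progenitor cells are fibroblasts turned into cells that grow as muscle progenitors and also form muscle in the dish. Here embryonic fibroblasts of a MyoD-KO or a MyoD-WT genotype were converted by Myf6 overexpression together with forskolin, RepSox and CHIR99021, and colonies that no longer needed Myf6 were picked. The groups were 1 MyoD-KO clone and 1 MyoD-WT clone, each at passage 4, each with the strain label Myod1tm1Jae, and each kept in 5 µM forskolin, 5 µM RepSox, 3 µM CHIR99021 and 10 ng/mL bFGF. RNA of single cells was counted with the 10x Genomics 3′ chemistry, in 1 library per clone. With 1 clone and 1 library per genotype there is no replicate, so no test was made, and genotype, clone and library cannot be told apart. All intervals below are 95% intervals that cover counting error only.

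Kinesins are motor proteins that use ATP to move along microtubules or to take microtubule ends apart. One set builds the mitotic spindle, moves chromosomes and completes cell division, and its genes are switched on with the other genes of late cell cycle. Another set carries vesicles, organelles and RNA in cells that need not divide, and in muscle the kinesin-1 motor with its partner Map7 is known for spacing the nuclei of the multinucleated fibre. A smaller set works in the cilium, the antenna built from a centriole that most resting cells carry. By textbook role, 13 of the 42 members are mitotic kinesins, 15 are transport kinesins, 6 belong to the cilium or centriole, and 8 have another or a mixed role.

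Cells were sorted in silico by marker genes that include no kinesin. Pax7+ cells, the progenitors, were split by the summed level of 24 mitosis genes and of 20 S-phase genes into a mitotic range, an S range and a non-cycling group that was low in both. Myog+ cells, which have begun differentiation, were split the same way into mitotic and low-cycle cells. Muscle-rich cells were the 15% of all kept cells with the largest share of UMIs, the counted RNA molecules, from 25 sarcomere genes. The MyoD-KO library had 7670 barcodes with a median of 37369 UMIs, of which 5638 were kept, and the MyoD-WT library had 8191 barcodes with a median of 34170 UMIs, of which 7316 were kept. The 6 states held 497, 346, 473, 65, 463 and 1028 MyoD-KO cells, and 442, 592, 173, 112, 550 and 915 MyoD-WT cells, in the order mitotic Pax7+, S-range Pax7+, non-cycling Pax7+, mitotic Myog+, low-cycle Myog+ and muscle-rich. The other 2766 MyoD-KO and 4532 MyoD-WT cells were in no state. Levels are given in CPM, the UMIs of a gene summed over the cells of a library and state and scaled to a common total. A member was called higher or lower between states where it differed at least 2-fold in the same direction in both libraries, with at least 5 CPM in the higher state of each.

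The mitosis and sarcomere sums given next describe the gates and do not check them, since the same sums were used to choose the cells. The summed mitosis genes stood at 7995 CPM in MyoD-KO and 7372 CPM in MyoD-WT mitotic Pax7+ cells, against 604 CPM and 420.0 CPM in non-cycling cells. The sarcomere genes summed to 99567 CPM in MyoD-KO and 75277 CPM in MyoD-WT muscle-rich cells. The 3 immune markers stayed near 0 in all states. The 8 fibroblast markers summed to 674 CPM or less in the MyoD-KO states and to 209 CPM or less in the MyoD-WT states. Myod1 itself was counted at 63.3 CPM in the MyoD-KO library and 162 CPM in the MyoD-WT library. The deleted part of Myod1 is not given in the sources used here, and a 3′ count outside it would not check the genotype.

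Of the 42 members, 36 reached 1 CPM in at least 1 state of a library, and 27 reached 5 CPM in some state of each library. No UMI of Kif2b, a spindle depolymerase, or of Kif12 was found in any kept cell, which allows levels of up to 0.0124 CPM in MyoD-KO and 0.0108 CPM in MyoD-WT cells. The transport kinesins Kif5a, Kif17 and Kifc2, all best known from neurons, and Kif28 stayed under 1 CPM in every state. A further 9 members reached 1 CPM but not 5 CPM in both libraries. They were Kif7, Kif19a, Kif5c, Kif26a, Kif19b, Kif27, Kif6, Kif9 and Kif21b, and their highest levels ran from 6.06 CPM for Kif7, in MyoD-WT mitotic Pax7+ cells, to 1.62 CPM for Kif21b, in MyoD-KO non-cycling cells.

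**Figure D1:**
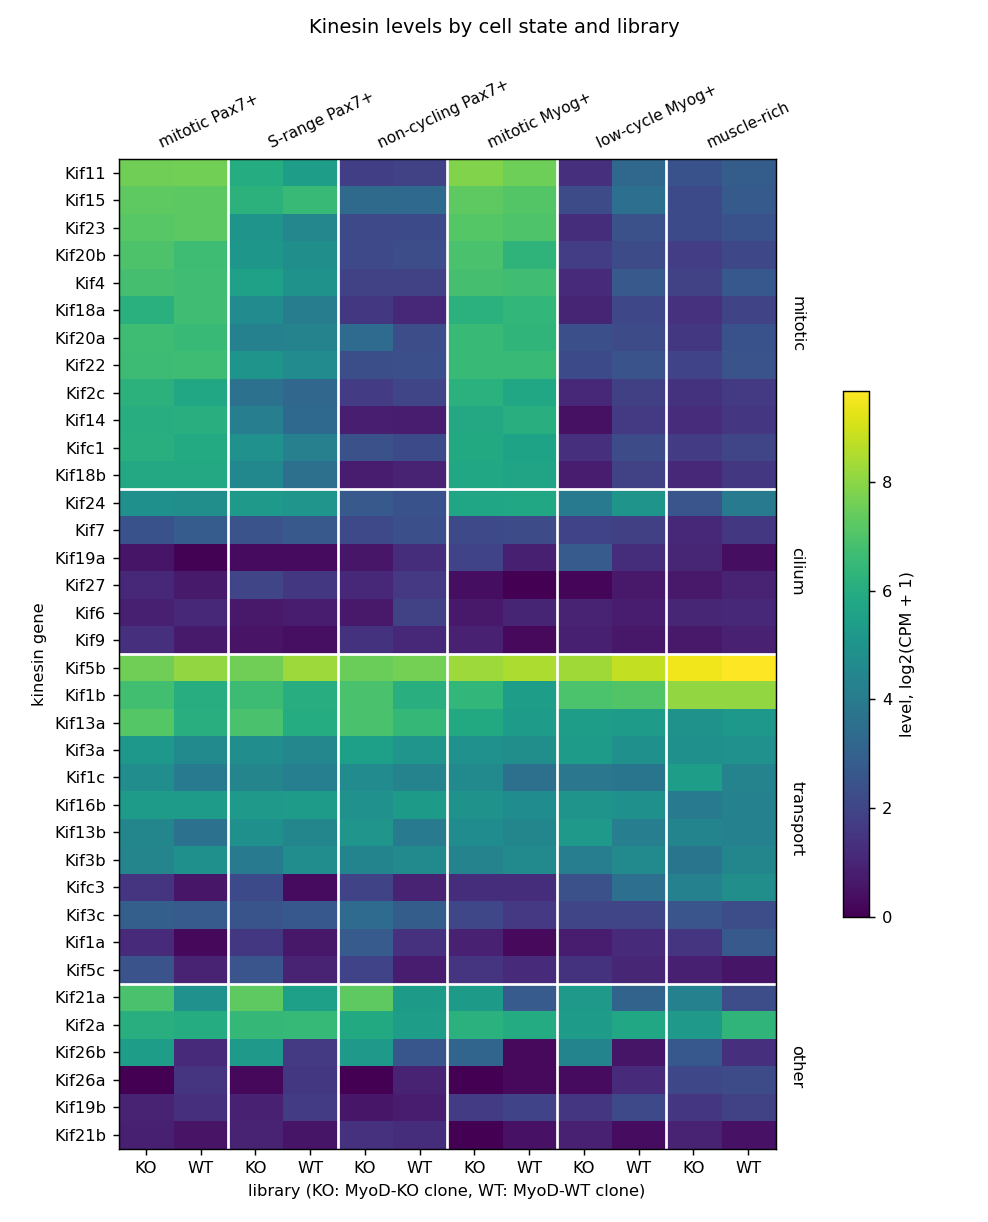
Levels of the 36 kinesins that reached 1 CPM, as log2(CPM + 1), in the 6 cell states (column pairs) of the MyoD-KO and MyoD-WT libraries, grouped by textbook role (rows). The mitotic kinesins are bright in the mitotic Pax7+ and mitotic Myog+ columns, where their summed level was 1260 and 1248 CPM in MyoD-KO and 1235 and 1102 CPM in MyoD-WT cells, and dark in the non-cycling and muscle-rich columns, while Kif5b and Kif1b are brightest in muscle-rich cells.

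The mitotic kinesins were the members that marked dividing progenitors. Summed over the 13 genes, they stood at 1260 CPM in MyoD-KO and 1235 CPM in MyoD-WT mitotic Pax7+ cells, against 44.6 CPM and 39.2 CPM in non-cycling Pax7+ cells. Of the 42 members, 13 were called higher in mitotic-range cells and none lower. They were 12 of the 13 mitotic kinesins, all but the undetected Kif2b, together with the centriolar Kif24. Over all genes that reached the minimum level, 4.5% were called higher and 1.21% lower. Of the mitotic kinesins, 1, Kif15, reached 5 CPM in non-cycling cells of both libraries, so for the other mitotic kinesins a level past the minimum already meant a difference. The mitosis genes used to choose the cells are themselves cell cycle genes, so these contrasts show how far each kinesin follows them.

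Kif11 (ENSMUSG00000012443) slides spindle microtubules apart so that the poles separate. It was counted at 192 CPM in MyoD-KO and 197 CPM in MyoD-WT mitotic-range cells, against 2.46 CPM and 2.78 CPM in non-cycling cells. The ratio was 78.2 in MyoD-KO (interval 56.9 to 111) and 70.6 in MyoD-WT (40.4 to 137). When every cell was thinned to 5000 UMIs, a Kif11 UMI was found in 60.4% of MyoD-KO and 57.2% of MyoD-WT mitotic-range cells, against 0.634% and 0.578% of non-cycling cells. Without thinning those shares were 100% and 99.8% in mitotic-range cells against 6.34% and 5.78% in non-cycling cells. Muscle-rich cells had a thinned share of 1.75% in MyoD-KO and 2.25% in MyoD-WT, at median depths of 48036 and 36841 UMIs, so the non-cycling share was no higher than that of muscle-rich cells.

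Kif15 (ENSMUSG00000036768) backs up Kif11 in holding the spindle bipolar. It stood at 155 CPM in MyoD-KO and 149 CPM in MyoD-WT mitotic-range cells, against 9.06 CPM and 8.81 CPM in non-cycling cells. Its ratios of 17.1 in MyoD-KO (14.5 to 20.4) and 16.9 in MyoD-WT (12.3 to 24) were smaller than those of Kif11, and the intervals did not overlap. Kifc1, a minus-end motor that focuses spindle poles, had ratios of 15.3 in MyoD-KO and 16.9 in MyoD-WT. Kifc5b, a near-identical copy of Kifc1 outside the member rule, stood at 47.5 CPM in MyoD-KO and 43.4 CPM in MyoD-WT mitotic-range cells, against 3.11 CPM and 3.71 CPM in non-cycling cells. Reads of the 2 genes could have been split between them, so the level of Kifc1 is uncertain.

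The motors of chromosomes and of microtubule ends followed the same pattern. Kif4 and Kif22, chromokinesins that bind chromosome arms, had ratios of 42.2 and 24 in MyoD-KO and of 37.3 and 24.1 in MyoD-WT. Kif2c, which takes microtubules apart at centromeres, stood at 73.6 CPM in MyoD-KO and 53.7 CPM in MyoD-WT mitotic-range cells, against 2.20 CPM and 3.01 CPM in non-cycling cells. Kif18a, which damps the movement of chromosomes at the spindle equator, had a ratio of 35.1 in MyoD-KO (24.7 to 51.9) and 90.2 in MyoD-WT (38.6 to 278). Kif18b, which trims astral microtubules, had ratios of 88 in MyoD-KO and 61.6 in MyoD-WT. For Kif18a and Kif18b the wide intervals come from non-cycling levels of 0.648 to 2.01 CPM.

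The kinesins of cytokinesis were also higher in the mitotic range, to differing degrees. Kif23, the motor of the centralspindlin complex, stood at 144 CPM in MyoD-KO and 151 CPM in MyoD-WT mitotic-range cells, against 3.43 CPM and 3.48 CPM in non-cycling cells. Kif14, which works with citron kinase at the midbody, had ratios of 83.6 in MyoD-KO and 94.3 in MyoD-WT, and Kif20b, which acts in abscission, had ratios of 36.9 and 25.9. Kif20a, which brings the chromosomal passenger complex to the central spindle, had ratios of 10.5 in MyoD-KO (8.92 to 12.5) and 23.4 in MyoD-WT (14.6 to 40.3). It had 101 CPM in MyoD-KO and 92.4 CPM in MyoD-WT mitotic-range cells, against 9.58 CPM and 3.94 CPM in non-cycling cells. Kif20a overlaps Cdc23 and Kif4 overlaps Pdzd11 on the opposite strand in GENCODE M21, and whether counting used the strand is not stated.

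**Figure D2:**
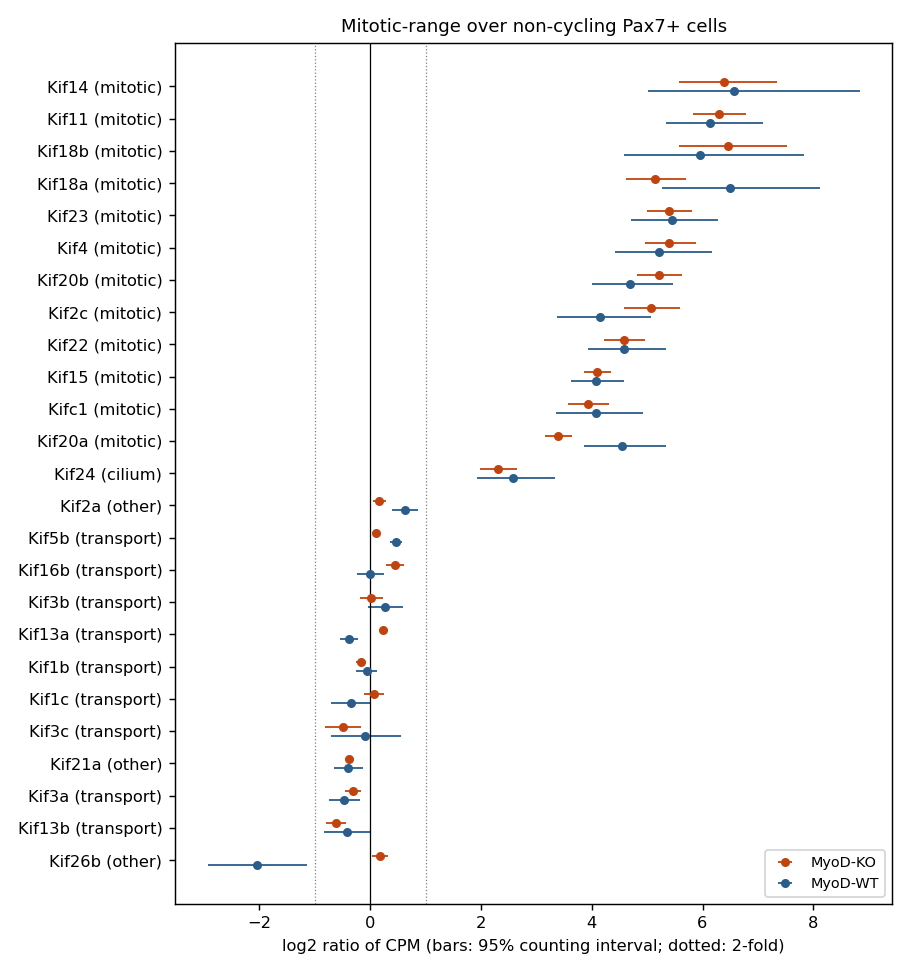
Ratio of the level in mitotic-range to that in non-cycling Pax7+ cells on a log2 scale (x axis) for the 25 kinesins that reached 5 CPM in either state of each library (y axis, role in brackets), with 95% counting intervals. The 12 mitotic kinesins and Kif24 lie right of the 2-fold line in both libraries, and all transport kinesins lie between the 2-fold lines. Ordered by both log2 ratios summed, those 12 and Kif24 run from Kif24 at 4.98 in MyoD-KO and 6.0 in MyoD-WT to Kif14 at 83.6 and 94.3. In MyoD-KO alone Kif18b has the highest ratio.

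The promoters of these genes are shown because late cell cycle genes are known for 2 short elements just before their start, the CCAAT box and the cell cycle homology region with the core TTTGAA. RefSeq promoter sequence of build GRCm38.p6, which is not the build named by the submitters, was at hand for 32 of the 42 members, among them 12 of the 13 kinesins called higher in mitotic-range cells. A gene was counted where any of its promoters held the motif. In the 130 bases from 100 before to 30 after the start, TTTGAA on either strand (TTCAAA on the other) occurred in 8 of those 12. It occurred in 3 of the 20 other kinesins and in 8.29% of the 27025 genes in the table. CCAAT on either strand (ATTGG on the other) occurred in 8 of the 12, in 6 of the 20, and in 24.5% of all genes. The 2 motifs can share no more than a letter at their ends. Both occurred together in 6 of the 12, namely Kif11, Kif18b, Kif22, Kif23, Kif4 and Kifc1. They did so in 1 of the 20, Kif26b, and in 1.83% of all genes. In the full 300 bases of the table, TTTGAA occurred in 10 of the 12, in 3 of the 20 and in 20.2% of all genes. CCAAT there occurred in 8 of the 12, in 7 of the 20 and in 41.1% of all genes. Both together occurred in 7 of the 12, in 2 of the 20 and in 7.97%.

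The first 4 windows below belong to mitotic kinesins that hold both motifs. Kif15 holds TTCAAA alone, Kif24 holds ATTGG alone, and Kif21a, a kinesin that was not called between these states, holds none of them. They are Kif11 at chr19:37376282-37376411 on the plus strand, Kif22 at chr7:127042391-127042520 on the minus strand, Kif23 at chr9:61946770-61946899 on the minus strand, Kif4 at chrX:100625965-100626094 on the plus strand, Kif15 at chr9:122950981-122951110 on the plus strand, Kif24 at chr4:41464819-41464948 on the minus strand and Kif21a at chr15:91049922-91050051 on the minus strand. Each is written 5′ to 3′ on the gene's strand, with the letters of a motif in capitals.
Kif11: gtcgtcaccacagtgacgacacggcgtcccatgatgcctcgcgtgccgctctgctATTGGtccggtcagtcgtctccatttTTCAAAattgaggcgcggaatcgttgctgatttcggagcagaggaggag
Kif22: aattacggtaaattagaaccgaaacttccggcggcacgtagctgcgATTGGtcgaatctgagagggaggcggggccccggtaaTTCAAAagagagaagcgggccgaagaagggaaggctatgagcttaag
Kif23: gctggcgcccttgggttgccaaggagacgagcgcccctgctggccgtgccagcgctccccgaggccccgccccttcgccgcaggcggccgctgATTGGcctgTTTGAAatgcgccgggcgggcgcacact
Kif4: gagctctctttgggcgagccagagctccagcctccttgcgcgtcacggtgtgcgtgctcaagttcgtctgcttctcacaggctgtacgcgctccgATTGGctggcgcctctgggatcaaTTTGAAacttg
Kif15: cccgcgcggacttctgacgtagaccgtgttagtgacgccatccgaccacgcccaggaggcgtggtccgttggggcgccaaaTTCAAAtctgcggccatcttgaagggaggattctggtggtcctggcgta
Kif24: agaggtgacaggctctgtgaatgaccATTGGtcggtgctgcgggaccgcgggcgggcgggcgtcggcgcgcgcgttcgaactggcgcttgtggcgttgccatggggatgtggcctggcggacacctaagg
Kif21a: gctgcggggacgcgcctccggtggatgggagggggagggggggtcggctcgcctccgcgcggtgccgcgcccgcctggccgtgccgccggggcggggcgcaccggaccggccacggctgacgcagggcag

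In the Kif11 window ATTGG begins at position -45 and TTCAAA at -19 relative to the start. In Kif22 they begin at -54 and -17, in Kif23 ATTGG begins at -7 and TTTGAA at 3, and in Kif4 they begin at -5 and 20. The distances from ATTGG to the second motif therefore differ between these genes. A match of letters is a description of the window and not a measured site.

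S-range Pax7+ cells held an intermediate level of most mitotic kinesins. Summed, these stood at 400.3 CPM in MyoD-KO and 319.8 CPM in MyoD-WT S-range cells. The S range left out mitotic-range cells but was not chosen to be low in the mitosis genes, as the non-cycling cells were. Those genes summed to 1871 CPM in MyoD-KO and 1667 CPM in MyoD-WT S-range cells, against 604 CPM and 420 CPM in non-cycling cells. An intermediate kinesin level was therefore partly set by the choice of cells. Against non-cycling cells, 12 members were called higher and none lower in the S range, and all 12 were also higher in the mitotic range, with Kif20a the one left out. Over all genes 5.57% were called higher. With Pax7+ cells under the median of both sums as non-cycling, 3 members were called higher in the S range, Kif15, Kif20b and Kif24. The S-range level of Kif15 was 47.2% of its mitotic-range level in MyoD-KO (44.0 to 50.6) and 62.0% in MyoD-WT (58.4 to 65.7). For Kif2c it was 15.8% and 15.2%, for Kif20a 17.9% and 20.9%, and for Kif23 21.8% and 14.3%. The spindle motor Kif15 was thus held at a larger share in S-range cells than the motors of centromere and midzone, in both libraries. For the other mitotic kinesins the share lay between 25.6% and 43.3% in MyoD-KO and between 13.6% and 29.9% in MyoD-WT.

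Kif24 (ENSMUSG00000028438) had a profile of its own. It is a centriolar motor that takes microtubules apart and, in human cells, holds back the growth of a cilium. In S-range cells it stood at 35.6 CPM in MyoD-KO and 32.0 CPM in MyoD-WT, against 27.7 CPM and 26.4 CPM in mitotic-range cells. The S-range level was 129% of the mitotic-range level in MyoD-KO (114 to 144) and 121% in MyoD-WT (108 to 136). None of the 12 mitotic kinesins had an S-range level above its mitotic-range level in either library. In non-cycling Pax7+ cells Kif24 stood at 5.57 CPM in MyoD-KO and 4.41 CPM in MyoD-WT.

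Kif24 was also high in Myog+ cells. It stood at 51.5 CPM in MyoD-KO and 53.6 CPM in MyoD-WT mitotic Myog+ cells, which was 1.86 times (1.57 to 2.19) and 2.03 times (1.74 to 2.36) its level in mitotic Pax7+ cells. In low-cycle Myog+ cells it stood at 15.4 CPM in MyoD-KO and 31.0 CPM in MyoD-WT, against 5.57 CPM and 4.41 CPM in non-cycling Pax7+ cells. It was the 1 member called higher there, with ratios of 2.76 (2.16 to 3.55) and 7.03 (4.46 to 11.7), where 5.23% of all genes were called higher. Among cells with under 200 CPM of fibroblast markers, which left 28 MyoD-KO non-cycling cells, the MyoD-KO log2 ratio was 0.16, which ends the call. With the highest 20% of cells as muscle-rich that ratio was just under 1, which also ends the call. In muscle-rich cells it stood at 4.93 CPM in MyoD-KO and 15.2 CPM in MyoD-WT, and was called lower than in low-cycle Myog+ cells, as were 6.99% of all genes. After thinning to 5000 UMIs, a Kif24 UMI was found in 25% of MyoD-KO and 24.3% of MyoD-WT mitotic Myog+ cells, in 7.01% and 12.9% of low-cycle Myog+ cells, and in 1.27% and 0.578% of non-cycling Pax7+ cells. Sarcomere RNA of low-cycle Myog+ cells stood at 10093 CPM in MyoD-KO and 21340 CPM in MyoD-WT, and its part in the Kif24 levels was not tested.

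The other cilium kinesins were scarce. Kif7, which acts on Gli proteins at the tip of the cilium, stood between 1.12 and 4.56 CPM in the MyoD-KO states and between 1.97 and 6.06 CPM in the MyoD-WT states. Kif27, Kif6 and Kif9 reached at most 3.06 CPM, 2.78 CPM and 1.68 CPM. Kif19a, which limits the length of motile cilia, had its highest level, 5.87 CPM, in MyoD-KO low-cycle Myog+ cells, against 1.43 CPM in MyoD-WT low-cycle Myog+ cells. Of 6 genes of intraflagellar transport and ciliary entry that were listed beside the kinesins, none was called between mitotic-range and non-cycling Pax7+ cells. In muscle-rich cells 3 of the 6 were called lower, Ift88, Ift140 and Arl13b, where 20.9% of all genes were called lower. Ift88 stood at 4.13 CPM in MyoD-KO and 5.45 CPM in MyoD-WT, against 19.5 CPM and 13.4 CPM in non-cycling cells.

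The mitotic kinesins stood at similar levels in dividing Myog+ and dividing Pax7+ cells. In mitotic Myog+ cells they summed to 1248 CPM in MyoD-KO and 1102 CPM in MyoD-WT, against 22.5 CPM and 55 CPM in low-cycle Myog+ cells. In this comparison, which was added after the data were seen, 12 members were called higher and none lower, and these 12 were the 12 detected mitotic kinesins. Over all genes 5.88% were called higher and 3.09% lower. Kif11 stood at 229 CPM in MyoD-KO and 184 CPM in MyoD-WT mitotic Myog+ cells, against 1.52 CPM and 8.41 CPM in low-cycle Myog+ cells. Set directly against mitotic Pax7+ cells, no mitotic kinesin was called in either direction, while 2.8% of all genes were called higher and 3.51% lower. The ratios of the 12 ran from 0.877 for Kif14 to 1.19 for Kif11 in MyoD-KO and from 0.769 for Kif20b to 1.02 for Kif14 in MyoD-WT. The mitotic Myog+ groups were small, with 65 MyoD-KO and 112 MyoD-WT cells, and were gated on the same mitosis genes at the same level. Their median depth was 55433 UMIs in MyoD-KO and 44033 UMIs in MyoD-WT, against 40811 and 33552 UMIs in low-cycle Myog+ cells. With the 6% of cells with the highest doublet scores removed, the number called higher was again 12.

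Transport kinesins did not follow the cell cycle. Summed over the 15 genes they stood at 594 CPM in MyoD-KO and 532 CPM in MyoD-WT mitotic-range cells, against 588 CPM and 493 CPM in non-cycling cells. None was called in either direction, although 9 of the 15 had at least 5 CPM in non-cycling cells of both libraries. Among those 9 the ratio ran from 0.652 for Kif13b to 1.37 for Kif16b in MyoD-KO, and from 0.723 for Kif3a to 1.39 for Kif5b in MyoD-WT. Kif3a and Kif3b, the motor pair that drives transport into the cilium, had ratios of 0.804 and 1.01 in MyoD-KO and of 0.723 and 1.20 in MyoD-WT. For Kif5b the MyoD-WT interval was 1.29 to 1.49, so counting error does not cover a ratio of 1, but the difference was under 2-fold.

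Muscle-rich cells held more of 3 transport kinesins. Against non-cycling Pax7+ cells, 16 members reached the minimum level, of which 3 were called higher and 3 lower. Over all genes that reached it, 8.49% were called higher and 20.9% lower. The number of members called lower was thus near the all-gene share. The median gene lay at a log2 ratio of -0.48 in MyoD-KO and -0.43 in MyoD-WT. Scaling by TMM factors, which estimate a common shift, moved all ratios up by 0.37 in MyoD-KO and 0.41 in MyoD-WT on the log2 scale.

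Kif5b (ENSMUSG00000006740), the heavy chain of the general kinesin-1 motor, was the clearest of them. It stood at 719 CPM in MyoD-KO and 821 CPM in MyoD-WT muscle-rich cells, against 179 CPM and 199.9 CPM in non-cycling Pax7+ cells. The ratio was 4.02 in MyoD-KO (3.87 to 4.18) and 4.11 in MyoD-WT (3.84 to 4.40). Low-cycle Myog+ cells lay between, at 312 CPM in MyoD-KO and 441 CPM in MyoD-WT. After thinning, 93.4% of MyoD-KO and 95.5% of MyoD-WT muscle-rich cells had a Kif5b UMI, against 57.3% and 54.9% of non-cycling cells. Without thinning the shares were 95.8% and 99% against 97.3% and 98.8%. In both libraries the level was lowest in non-cycling Pax7+ and highest in muscle-rich cells. In GENCODE M21 Kif5b overlaps Gm17036 on the opposite strand.

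Kif1b (ENSMUSG00000063077), which carries mitochondria and vesicle precursors, stood at 274 CPM in both the MyoD-KO and the MyoD-WT muscle-rich cells, against 119 CPM and 68.2 CPM in non-cycling Pax7+ cells. Its ratios were 2.30 in MyoD-KO (2.19 to 2.42) and 4.03 in MyoD-WT (3.59 to 4.54). It was also called higher in muscle-rich than in low-cycle Myog+ cells, which had 122 CPM in MyoD-KO and 134 CPM in MyoD-WT, where 5.72% of all genes were called higher. So Kif1b was higher in muscle-rich cells than in any other state of either library. The interval of its level in low-cycle Myog+ cells stayed below that of muscle-rich cells in both libraries.

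Kifc3 (ENSMUSG00000031788), a minus-end motor known from the adherens junctions and centrosomes of epithelial cells, stood at 18.3 CPM in MyoD-KO and 26.7 CPM in MyoD-WT muscle-rich cells, against 2.98 CPM and 0.928 CPM in non-cycling Pax7+ cells. Its ratios were 6.13 in MyoD-KO (4.56 to 8.44) and 28.8 in MyoD-WT (11.2 to 106). In low-cycle Myog+ cells it stood at 4.25 CPM in MyoD-KO and 10.6 CPM in MyoD-WT. In each library the level was higher in low-cycle Myog+ than in non-cycling Pax7+ cells and higher again in muscle-rich cells. The first of these steps was not called, and in MyoD-KO it rested on levels under 5 CPM.

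**Figure D3:**
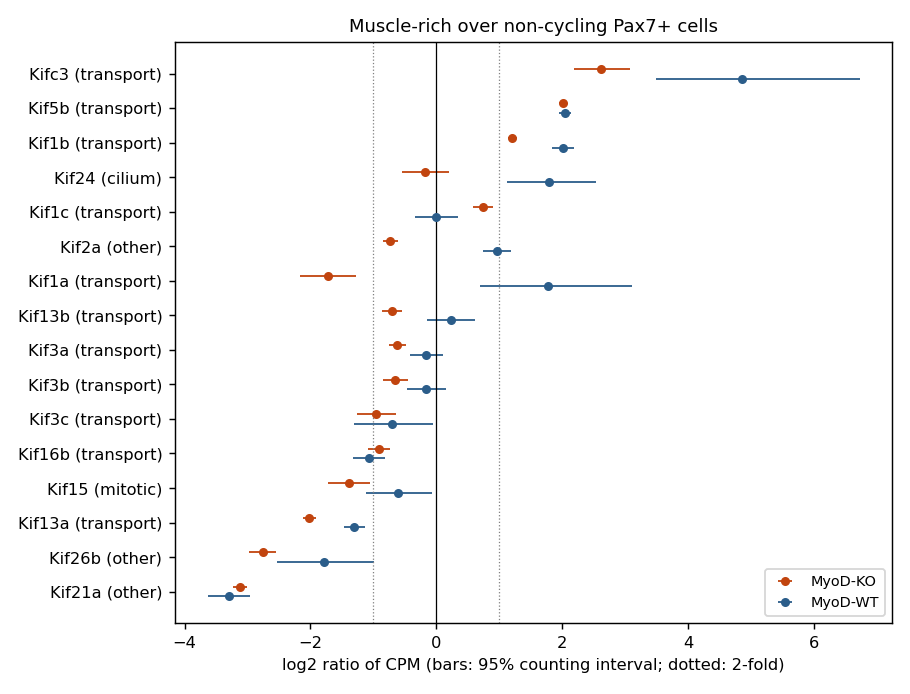
Ratio of the level in muscle-rich to that in non-cycling Pax7+ cells on a log2 scale (x axis) for the 16 kinesins that reached 5 CPM in either state of each library (y axis, role in brackets), with 95% counting intervals. Kifc3, Kif5b and Kif1b lie right of the 2-fold line and Kif13a, Kif26b and Kif21a left of it in both libraries, while Kif1a and Kif2a lie on opposite sides of equality in the 2 libraries.

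The 3 kinesins called lower in muscle-rich cells were Kif21a, Kif26b and Kif13a. Kif21a (ENSMUSG00000022629), which slows microtubule growth at the cell cortex, stood at 17.9 CPM in MyoD-KO and 3.85 CPM in MyoD-WT muscle-rich cells, against 155 CPM and 37.8 CPM in non-cycling Pax7+ cells. Its ratios were 0.115 in MyoD-KO (0.106 to 0.125) and 0.102 in MyoD-WT (0.0805 to 0.129). Within each library the level was already lower in low-cycle Myog+ cells, at 37.1 CPM in MyoD-KO and 7.5 CPM in MyoD-WT. Dividing Myog+ cells were also low, with 38.2 CPM in MyoD-KO and 5.83 CPM in MyoD-WT, against 119.8 CPM and 28.8 CPM in dividing Pax7+ cells. Kif21a was thus called lower in Myog+ than in Pax7+ cells of the same mitotic range, as was Kif3c.

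Kif13a (ENSMUSG00000021375), which moves recycling endosomes and mannose-6-phosphate receptors, stood at 29.4 CPM in MyoD-KO and 35 CPM in MyoD-WT muscle-rich cells, against 119 CPM and 86.5 CPM in non-cycling Pax7+ cells. Its ratios were 0.247 in MyoD-KO and 0.404 in MyoD-WT. With TMM scaling the MyoD-WT log2 ratio was -0.89, which ends the call. Kif13a, Kif21a and Kif3c were called lower in low-cycle Myog+ than in non-cycling Pax7+ cells, where 9.72% of all genes were called lower. Kif3c, a partner of Kif3a, stood at 3.04 CPM in MyoD-KO and 3.11 CPM in MyoD-WT low-cycle Myog+ cells, against 9.39 CPM and 6.26 CPM in non-cycling cells. Kif26b, an atypical kinesin known from Wnt5a and Ror signalling, stood at 5.42 CPM in MyoD-KO and 1.48 CPM in MyoD-WT muscle-rich cells, against 36.6 CPM and 5.10 CPM in non-cycling Pax7+ cells. A minimum of 10 CPM ends the Kif26b call, since both MyoD-WT levels lie under it. Among cells with under 200 CPM of fibroblast markers the MyoD-WT log2 ratio of Kif26b was -0.061, which also ends the call. That limit left 28 MyoD-KO and 135 MyoD-WT non-cycling cells.

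The remaining transport kinesins with 5 CPM were not called between muscle-rich and non-cycling Pax7+ cells. Kif16b, which binds early endosomes, had ratios of 0.529 in MyoD-KO and 0.474 in MyoD-WT, past 2-fold in MyoD-WT alone. Kif3a, Kif3b and Kif13b had ratios between 0.611 and 0.649 in MyoD-KO and between 0.889 and 1.17 in MyoD-WT. Kif1c, which in human cells moves integrin-bearing vesicles, had ratios of 1.67 in MyoD-KO and 0.997 in MyoD-WT. Kif1a ran in opposite directions, with ratios of 0.303 in MyoD-KO and 3.41 in MyoD-WT. Kif3c stood at 4.84 CPM in MyoD-KO and 3.85 CPM in MyoD-WT muscle-rich cells, against 9.39 CPM and 6.26 CPM in non-cycling Pax7+ cells.

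**Figure D4:**
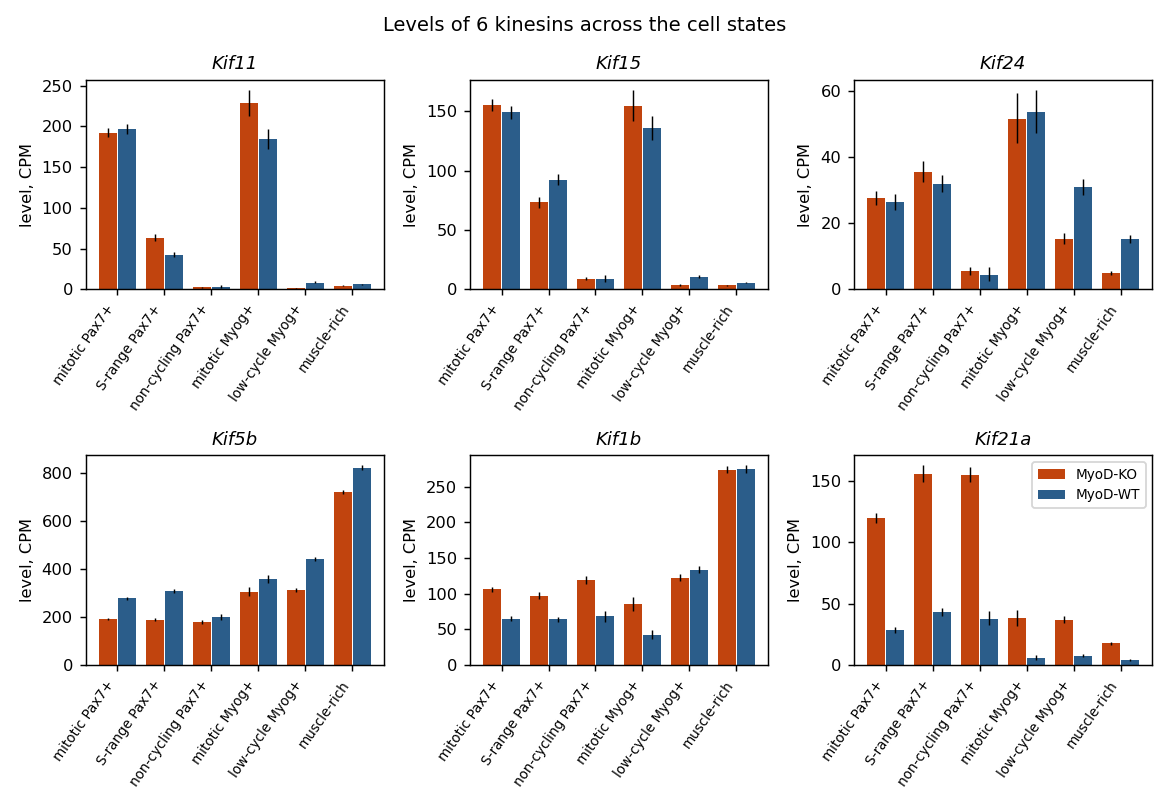
Levels in CPM (y axes, each from 0) of 6 kinesins in the 6 cell states (x axes) of the MyoD-KO (left bar) and MyoD-WT (right bar) libraries, with 95% counting intervals. Kif11 and Kif15 are high in mitotic states, Kif24 is also high in S-range and Myog+ cells, Kif5b and Kif1b are highest in muscle-rich cells, and Kif21a is highest in Pax7+ cells and higher in MyoD-KO than in MyoD-WT in all states.

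Genes that work beside the kinesins were read in the same states, from lists chosen for their role. Cenpe, the kinetochore kinesin that the naming rule leaves out, stood at 296 CPM in MyoD-KO and 318 CPM in MyoD-WT mitotic-range cells, against 13.0 CPM and 12.8 CPM in non-cycling cells. Of 12 dynein genes, the motor that runs the other way, 2 were called higher in mitotic-range cells and none lower, beside 4.5% higher and 1.21% lower over all genes. These were Nde1 and Spdl1, which place dynein at centrosomes and kinetochores, with ratios of 4.38 and 18.5 in MyoD-KO and of 8.79 and 21.3 in MyoD-WT. Of 12 kinesin partners, adaptors and light chains, 9 reached the minimum level there and none was called.

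In muscle-rich cells 11 of the 12 partners and 11 of the 12 dynein genes reached the minimum level. Of each list 1 was called higher and none lower, beside 8.49% higher and 20.9% lower over all genes. Map7d1, a microtubule protein of the family that recruits kinesin-1, stood at 130.3 CPM in MyoD-KO and 63.7 CPM in MyoD-WT muscle-rich cells, against 46.4 CPM and 21.6 CPM in non-cycling Pax7+ cells. Map7 itself was not called and ran the other way. It stood at 5.77 CPM in MyoD-KO and 7.19 CPM in MyoD-WT muscle-rich cells, against 9.97 CPM in the non-cycling cells of each library. Bicd2, an adaptor that joins dynein to its cargo, stood at 92.7 CPM in MyoD-KO and 75.0 CPM in MyoD-WT, against 24 CPM and 21.8 CPM. Dync1i1, a dynein intermediate chain, was called higher in low-cycle Myog+ than in non-cycling Pax7+ cells, as were 5.23% of all genes. It stood at 115 CPM in MyoD-KO and 211 CPM in MyoD-WT low-cycle Myog+ cells, against 5.76 CPM and 5.10 CPM in non-cycling Pax7+ cells. In muscle-rich cells it stood at 6.84 CPM in MyoD-KO and 123 CPM in MyoD-WT, so the MyoD-KO level there was near that of non-cycling cells. Stard9, a kinesin of another name that acts at the spindle pole, was called lower in muscle-rich cells, at 7.32 CPM in MyoD-KO and 9.10 CPM in MyoD-WT, against 32.7 CPM and 19.0 CPM.

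Between the genotypes the mitotic kinesins of mitotic-range cells differed by less than 2-fold. Within a state, a member was called between libraries where one level was at least 2-fold the other and at least 5 CPM. In mitotic-range Pax7+ cells no mitotic kinesin was called, and their MyoD-KO to MyoD-WT ratios ran from 0.674 for Kif18a (0.632 to 0.719) to 1.37 for Kif2c (1.27 to 1.48). Kif11 had a ratio of 0.979 (0.938 to 1.02). In S-range cells the ratios ran from 0.793 for Kif15 to 1.98 for Kif18b (1.66 to 2.36), and in mitotic Myog+ cells from 0.846 for Kif18a to 1.5 for Kif20b, again with none called. The median log2 ratio of the 12 was 0.57 in S-range cells, against 0.089 over all genes, so most leaned towards MyoD-KO there. In mitotic-range Pax7+ cells the median was 0.027, against 0.14 over all genes. Over all kept cells, in which the share of dividing cells also counts, the ratios ran from 0.588 for Kif18a to 1.05 for Kif2c, and of all genes 15.2% were called higher and 3.7% lower in MyoD-KO. Of all kept cells, 8.82% in MyoD-KO and 6.04% in MyoD-WT were mitotic-range Pax7+, and 8.39% and 2.36% were non-cycling Pax7+. Over all kept cells the 24 mitosis genes summed to 2633 CPM in MyoD-KO and 3175 CPM in MyoD-WT.

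Kif21a and Kif26b were higher in MyoD-KO than in MyoD-WT cells in each of the 6 states. In mitotic-range cells Kif26b stood at 41.4 CPM in MyoD-KO against 1.24 CPM in MyoD-WT, a ratio of 33.3 (22.3 to 52.3). In non-cycling cells it stood at 36.6 CPM in MyoD-KO against 5.10 CPM in MyoD-WT, and in low-cycle Myog+ cells at 19.8 CPM against 0.478 CPM. In mitotic Myog+ cells the MyoD-WT level of 0.201 CPM came from 1 UMI, and the ratio of 39.7 had an interval of 6.56 to 1623. The lowest ratio was 3.65 (2.70 to 5.02), in muscle-rich cells. With the 6% of cells with the highest doublet scores removed the muscle-rich log2 ratio of Kif26b was 1.06, still past 2-fold. The muscle-rich call was lost there because neither library reached 5 CPM. That call was kept under 10 of 16 alternatives, the one in mitotic Myog+ cells under 13, and those in the other 4 states under all 16. The counting intervals of the 2 libraries did not overlap in any state.

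For Kif21a the ratio of MyoD-KO to MyoD-WT was 4.16 (3.80 to 4.56) in mitotic-range, 3.62 (3.34 to 3.92) in S-range and 4.10 (3.50 to 4.84) in non-cycling Pax7+ cells. It was 6.55 in mitotic Myog+, 4.94 in low-cycle Myog+ and 4.63 in muscle-rich cells. In mitotic-range cells 16.4% of all genes were called higher and 4.51% lower in MyoD-KO, against which the 3 members called higher there, Kif13a, Kif21a and Kif26b, and the 0 called lower can be read. In the S-range state 15.8% of all genes were called higher and 4.56% lower, in non-cycling cells 15.2% and 3.53%, and in mitotic Myog+ cells 18.3% and 4.86%. In low-cycle Myog+ cells the shares were 12.3% and 6.07%, and in muscle-rich cells 12.8% and 5.85%. The promoter window of Kif21a is printed above and holds neither motif.

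Markers of other cells moved with the genotype. The 8 fibroblast markers summed to 543 CPM in MyoD-KO and 100.3 CPM in MyoD-WT mitotic-range cells, with 1 and 2 of them at 0, and to 674 CPM and 209 CPM in non-cycling cells, with 0 and 2 at 0. The 8 neural markers summed to 178 CPM in MyoD-KO and 83.5 CPM in MyoD-WT mitotic-range cells. The 4 smooth muscle markers went the other way, with 148 CPM in MyoD-KO and 745 CPM in MyoD-WT mitotic-range cells. An alternative added after the data were seen kept only cells with under 200 CPM of fibroblast markers, with all ranges set again. It left 38 mitotic-range, 15 S-range and 28 non-cycling MyoD-KO Pax7+ cells, where 497, 346 and 473 were used above. In MyoD-WT it left 488, 511 and 135. Kif21a was still called higher in MyoD-KO in all 6 states there, with log2 ratios from 1.51 to 2.44, and Kif26b in 4 of the 6. The part of neural and smooth muscle RNA in these differences was not tested.

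Of the other kinesins, 12 were called between the genotypes in 1 or 2 states, a count pooled over states. With Kif21a and Kif26b, 3 of 26 members at the minimum level were called higher in mitotic-range, 2 of 26 in S-range and 5 of 16 in non-cycling Pax7+ cells. In mitotic Myog+ cells these were 3 of 24, in low-cycle Myog+ cells 4 of 17 with 5 lower, and in muscle-rich cells 3 of 17 with 3 lower. The shares over all genes are given above for each state. In non-cycling Pax7+ cells MyoD-KO was higher for Kif1a at 5.83 CPM against 1.62 CPM, for Kif13b at 32.2 CPM against 15.3 CPM and for Kif20a at 9.58 CPM against 3.94 CPM. The Kif20a log2 ratio was 0.21 with Pax7+ cells under both medians as non-cycling and 0.67 with Pax7+ cells gated at a higher Pax7 level and with no Myog UMI, and either ends that call. Kif13a was higher in mitotic-range cells, at 140.2 CPM in MyoD-KO against 66.4 CPM in MyoD-WT. Kif1c was higher in mitotic Myog+ cells, at 23.1 CPM against 10.8 CPM, and in muscle-rich cells, at 40.8 CPM against 19.0 CPM. Kif13b and Kif19a were higher in low-cycle Myog+ cells, at 35.5 CPM against 16.7 CPM and 5.87 CPM against 1.43 CPM. TMM scaling lowered the MyoD-KO to MyoD-WT ratios by 0.21 to 0.28 on the log2 scale, after which the log2 ratios were 0.84 for Kif13a, 0.86 and 0.81 for Kif13b in non-cycling and low-cycle Myog+ cells, and 0.83 and 0.85 for Kif1c in mitotic Myog+ and muscle-rich cells, which ends these calls.

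Lower levels in MyoD-KO were seen in differentiating cells. In low-cycle Myog+ cells Kif11 stood at 1.52 CPM in MyoD-KO against 8.41 CPM in MyoD-WT, Kif4 at 1.21 CPM against 5.49 CPM, Kif15 at 3.72 CPM against 10.6 CPM, Kifc3 at 4.25 CPM against 10.6 CPM and Kif24 at 15.4 CPM against 31.0 CPM. The Kif11 ratio was 0.181 (0.118 to 0.269) and the Kif15 ratio 0.352 (0.266 to 0.462). For comparison, dividing Myog+ cells held 229 CPM of Kif11 in MyoD-KO and 184 CPM in MyoD-WT. With the 6% of cells with the highest doublet scores removed, the log2 ratios were -1.26 for Kif11, -0.90 for Kif15 and -1.74 for Kif4. These 3 calls were lost, for Kif15 because the ratio fell under 2-fold. Kif11 and Kif4 stayed past 2-fold, but neither library reached 5 CPM. With the highest 20% of cells as muscle-rich the log2 ratios were -0.95 for Kif11, -0.95 for Kif15, -0.77 for Kif4, -0.61 for Kif24 and 0.12 for Kifc3, and all 5 calls were lost. In that state the 24 mitosis genes summed to 357 CPM in MyoD-KO and 450.0 CPM in MyoD-WT.

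In muscle-rich cells the lower calls were Kif1a, Kif24 and Kif2a. Kif1a, a neuronal carrier of vesicle precursors, stood at 1.76 CPM in MyoD-KO against 5.54 CPM in MyoD-WT, and Kif24 at 4.93 CPM against 15.2 CPM. The Kif24 log2 ratio was -0.99 with no cell filter and -0.76 among cells with few fibroblast UMIs, which ends that call. Kif2a, which takes microtubules apart in neurons and at spindle poles, stood at 35.4 CPM in MyoD-KO against 79.1 CPM in MyoD-WT, a ratio of 0.447 (0.420 to 0.475). In mitotic-range cells Kif2a stood at 65.6 CPM in MyoD-KO and 62.6 CPM in MyoD-WT. Kif2a thus separated the libraries in muscle-rich cells, and the same gene was not called in any Pax7+ state. Sarcomere RNA of muscle-rich cells was higher in MyoD-KO, at 99567 CPM, than in MyoD-WT, at 75277 CPM, and its part in these differences was not tested.

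**Figure D5:**
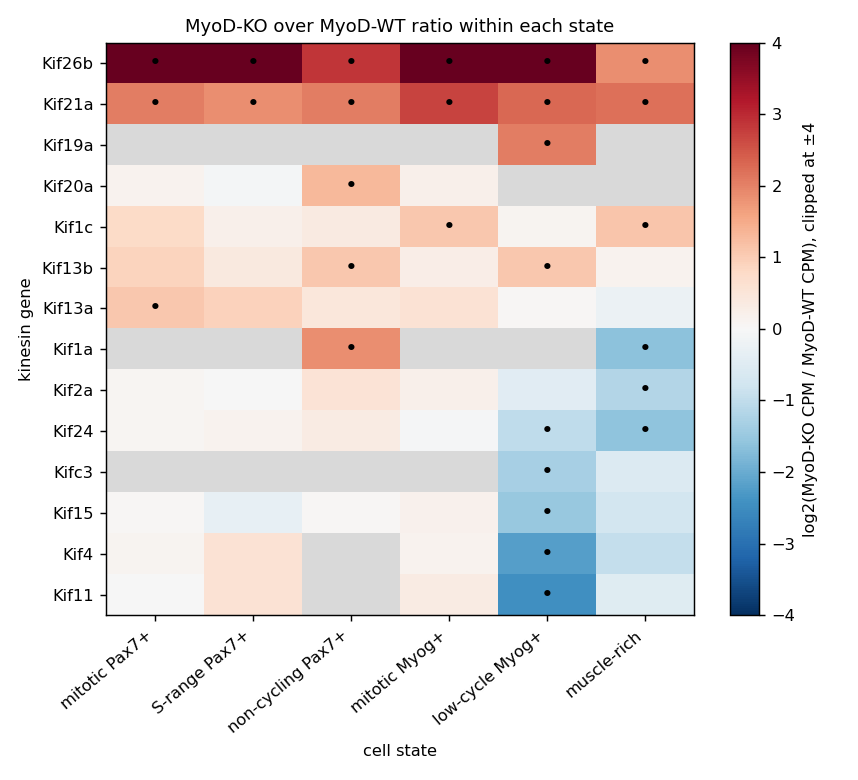
Ratio of the MyoD-KO to the MyoD-WT level on a log2 scale (colour, cut at 4 in either direction) for the 14 kinesins called in at least 1 state (rows) in the 6 cell states (columns). Dots mark calls and grey marks states in which neither library reached 5 CPM. Kif26b and Kif21a carry a dot in all 6 states, and the mitotic kinesins Kif11, Kif4 and Kif15 carry one in low-cycle Myog+ cells only.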

How the data were processed

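The authors deposited UMI counts that were not normalized, as 1 gene by barcode matrix for each library. The file headers name Cell Ranger 7.2.0. The submitters' processing notes name GRCm39 and Seurat without their roles. The annotation release, the use of introns and the use of strand are not given in the sources used here.

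Cells were kept with at least 1000 genes and at most 15% mitochondrial UMIs. Scrublet (scanpy 1.11.5, expected rate 0.06) called 144 MyoD-KO cells (2.49%) and 2 MyoD-WT cells (0.0273%) as doublets, which were removed. With so few calls in MyoD-WT they were not relied on there, and removing the highest 6% of scores was an alternative. The libraries shared 14 barcodes. Pax7+ cells had at least 2 Pax7 UMIs and 50 CPM, with Myog under 50 CPM. Mitotic and S ranges were the highest 15% of Pax7+ cells by summed marker CPM, non-cycling cells the lowest 1 of 3 equal parts in both sums, Myog+ cells had at least 200 CPM of Myog, and muscle-rich cells were set aside first, at 4.48% sarcomere UMIs or more. Within 10% of the mitotic limit lay 285 of 2531 MyoD-KO and 564 of 3728 MyoD-WT Pax7+ cells. These states are ranges of a score and not cell types.

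Counts were summed per library and state and scaled to CPM (numpy 2.4.6, scipy 1.17.1), with exact Poisson intervals for levels, conditional exact intervals for ratios and Clopper-Pearson intervals for shares. A level of 0 was given the limit of 3 counts over the library and state. For shares of cells each cell was thinned to 5000 UMIs, leaving out 169 MyoD-KO and 80 MyoD-WT shallower cells. TMM factors came from edgeR 4.0.16. Lengths play no part in 3′ counts, and levels are compared within a gene. All members with at least 1 CPM in a state are described by role, those past a call with their values. The members, roles and lists were chosen with earlier results of these data known. Gene names in overlap come from GENCODE M21 of another build, and no coordinates were converted. The calling steps were tested on simulated data.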

Additional observations from a re-analysis of the deposited data

Results flagged for a closer look

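Kinesins were singled out where a state contrast ran in opposite directions in the 2 libraries and both counting intervals left out a ratio of 1. The differences themselves were not tested, since each genotype has 1 library. For Kif26b, mitotic-range over non-cycling Pax7+ cells gave a ratio of 1.13 in MyoD-KO and 0.244 in MyoD-WT. For Kif13a the same contrast gave 1.18 in MyoD-KO and 0.767 in MyoD-WT. For Kif13b, S-range over non-cycling cells gave 0.864 in MyoD-KO and 1.37 in MyoD-WT.

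Kif1a in muscle-rich over non-cycling Pax7+ cells had a ratio of 0.303 in MyoD-KO and 3.41 in MyoD-WT, on levels of 1.76 CPM against 5.83 CPM in MyoD-KO and of 5.54 CPM against 1.62 CPM in MyoD-WT. Kif2a did so in 3 contrasts. Muscle-rich over non-cycling cells gave 0.603 in MyoD-KO and 1.95 in MyoD-WT, low-cycle Myog+ over non-cycling cells gave 0.668 and 1.31, and muscle-rich over low-cycle Myog+ cells gave 0.902 and 1.49. In GENCODE M21 Kif2a overlaps Dimt1 on the opposite strand.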

How the results depend on the processing

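Over 16 alternatives, 14 planned and 2 added after seeing the data, the 13 kinesins higher in mitotic-range Pax7+ cells were called each time. Of the 112 counts of calls under alternatives, 99 stayed within 1.5 times the reported count and 13 did not. With no cell filter, 5 kinesins were lower in muscle-rich and 3 higher in low-cycle Myog+ than in non-cycling Pax7+ cells. A minimum of 1 CPM gave 5 higher in muscle-rich, 2 higher in low-cycle Myog+ and 25 between genotypes, and a minimum of 10 CPM gave 9 between genotypes. With Pax7+ cells under the median of both sums as non-cycling, 3 kinesins were higher in the S range and 10 lower in muscle-rich cells. With the highest 10% as muscle-rich, 5 were lower there and 3 higher in low-cycle Myog+ cells, and with the highest 20% the number higher in low-cycle Myog+ cells was 0, a count by size with no test behind it. Cells under 200 CPM of fibroblast markers gave 7 lower in muscle-rich and 2 higher in low-cycle Myog+ cells, with 28 MyoD-KO non-cycling cells left. Between genotypes the calls of Kif21a in each state and of Kif2a in muscle-rich cells were kept under all 16 alternatives, and the others under 9 to 16. Of the single values, 1587 kept within their counting interval, 267 moved past it and 2 changed sign. Kif2c in MyoD-WT S-range over non-cycling cells had a log2 ratio of -0.021 with Pax7+ cells under both medians as non-cycling, and Kifc3 between MyoD-KO and MyoD-WT in low-cycle Myog+ cells had 0.12 with the highest 20% as muscle-rich. The causes were not tested. No paired analysis was possible because each genotype has 1 library. Depth limits members under 5 CPM, whose calls depend on the minimum, and the small mitotic Myog+ groups.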
